A study of Paxillus involutus with 12 samples.

Results

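Day 8 of a carbon starvation time course was compared with day 6 in mycelium of Paxillus involutus, an ectomycorrhizal basidiomycete. The titles count days and do not give when carbon ran out. The 6 arrays titled day 8 and day 6, 3 for each day, were chosen by their titles from the 12 arrays of the series, which also covers days 2 and 13. Both groups were strain ATCC 200175 without a host plant. The mycelium had been pre-grown for 10 days and deprived of nitrogen for 24 hours, and then lay on glass beads in Minimum Melin Norkrans medium, to which ammonium was added (C/N ratio 3), so by the labels the groups differed only in the day of harvest. Each replicate was a pool of 2 cultures, which hides differences between single cultures. Cultures of equal age with a carbon supply were not analysed here, so starvation and culture age cannot be told apart. Expression was read on a 1-colour 12-plex NimbleGen chip as log2 values for 12214 sequences.

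In nature an ectomycorrhizal fungus receives its carbon as sugars from the roots of a tree and delivers nitrogen and other nutrients in return. When carbon runs out, a mycelium can break down and reuse its own cell contents. Autophagy, in which cell material is enclosed in vesicles and degraded in the vacuole, is one route of such recycling, and it is named in the title of the series. The array's sequences are identified by running numbers alone. None of these occurs among the 18033 genes of the reference table, and the files add no gene information, so no function can be given for any sequence below.

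The arrays of the 2 days had the same overall scale, which the authors' processing (RMA) largely sets by giving all arrays a common distribution. Their median log2 values ranged over 11.36 to 11.38. The random-sequence control, a measure of background, read 4.49 to 4.61. Across sequences, Pearson's r was 0.9968 to 0.9980 among the day 8 arrays and 0.9966 to 0.9975 among the day 6 arrays, against 0.9846 to 0.9920 between the days. Replicates of a day differed by a median SD of 0.0771 at day 8 and 0.0790 at day 6, below the 0.139 of day 13 and the 0.129 of day 2. Day 8 array 3 stood farthest from day 6: its median absolute distance from the day 6 mean was 0.214, against 0.175 and 0.169 for day 8 arrays 1 and 2. Day 6 array 3 was the nearest to day 8, at 0.171 from the day 8 mean, against 0.196 and 0.195 for day 6 arrays 1 and 2. The sample descriptions number these arrays in 2 ways that disagree, which would exchange days 6 and 8. The titles were followed, and an exchange would turn every sign of day 8 against day 6. As titled, the median absolute distance of the day 2 arrays was 0.243 to 0.286 from the day 6 mean and 0.336 to 0.354 from the day 8 mean. That of the day 13 arrays was 0.308 to 0.356 from day 6 and 0.288 to 0.331 from day 8. The 3 arrays of each day also had consecutive numbers, so position on the chip and day cannot be told apart.

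Many sequences changed between the 2 days, and nearly all of them by little. In the limma fit 1741 sequences (14.3%) were higher at day 8 and 1417 (11.6%) were lower, together 3158 of 12214, or 25.9% (adjusted p under 0.05, Benjamini-Hochberg over all sequences). The median change was 0.40 on the log2 scale among those that rose and -0.42 among those that fell, against 0.00 over all sequences. The median called change was thus 1.33-fold in either direction. A log2 difference of 0.25 to 0.5 was found in 62.7% of the called changes, and one of 0.5 to 0.75 in 23.3%. The arrays of the 2 days did not overlap in 3140 of the 3158 called sequences. The same separation held for 6836 sequences, or 56.0% of all tested, so it went well beyond the called ones. Leaving out any 1 of these 6 arrays lowered the count. It was 1751, 1850 and 2484 without day 6 array 1, 2 or 3. Without day 8 array 1, 2 or 3 it was 2252, 2176 and 1520. Each such fit also has fewer arrays in 1 day, so the weight of an array and the lost replication cannot be told apart. With only these 6 arrays setting the spread the count was 5385, and with array weights 5787.

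**Figure D1:**
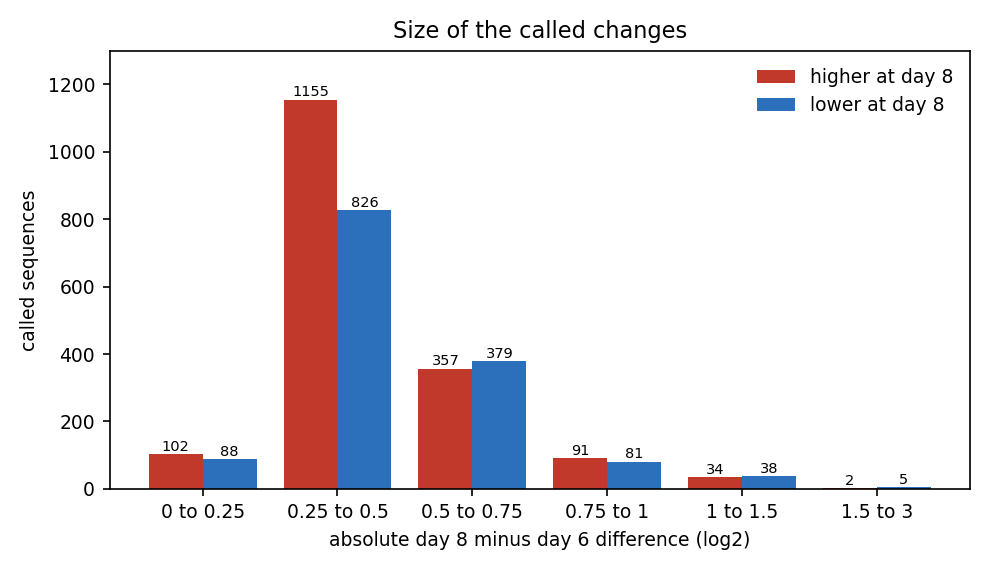
Number of sequences called in day 8 against day 6 (vertical axis), by absolute log2 difference (horizontal axis), higher at day 8 in red and lower at day 8 in blue. The bars for 0.25 to 0.5 are the tallest, with 1155 sequences higher and 826 lower, and beyond 1.5 only 2 higher and 5 lower are left.

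Called changes were spread over the whole range of expression. The sequences were ranked by their mean over the 12 arrays and divided into 4 classes of equal size. From the lowest to the highest class, 692 (22.7%), 878 (28.8%), 854 (28.0%) and 734 (24.0%) sequences were called. Rises outnumbered falls in the lowest class, by 425 to 267, and not in the highest, with 360 rises and 374 falls. The median standard error of the difference was 0.123 in the lowest class and 0.0846 in the highest. Changes of at least 2-fold numbered 16, 29, 23 and 11 in the same order of classes.

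**Figure D2:**
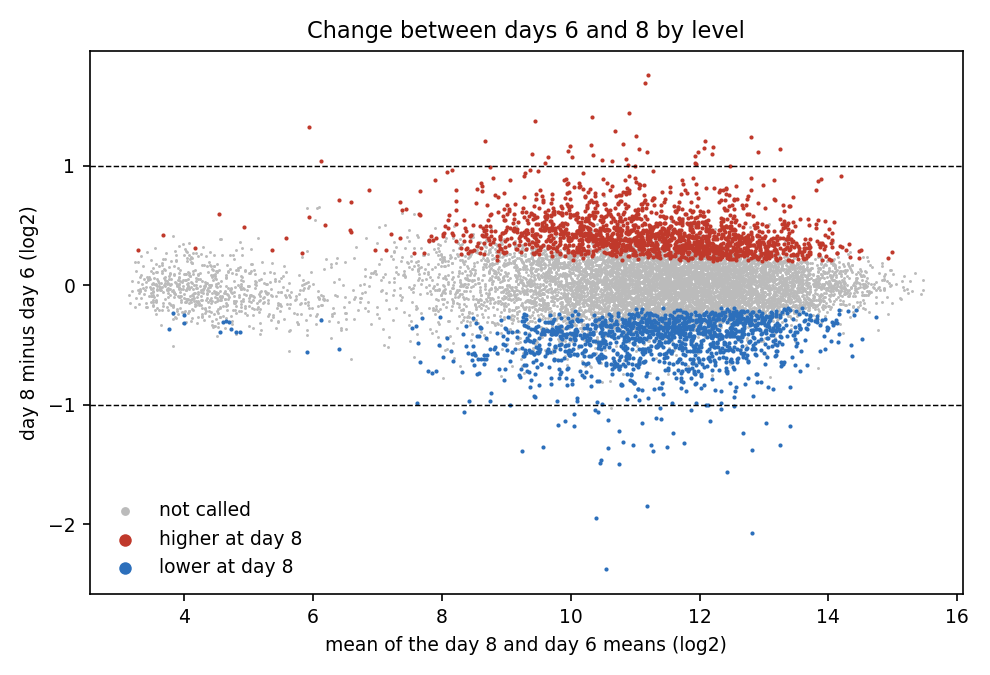
Day 8 minus day 6 (log2, vertical axis) against the mean of both days (log2, horizontal axis), 1 point per sequence. Called sequences are red where higher and blue where lower at day 8, the others are grey, and the dashed lines mark a 2-fold change, passed by 36 called rises and 43 called falls.

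Very few sequences crossed the level of the random control. A signal 2-fold or more above the array's own control was seen for 11547 sequences on each of the 6 arrays, and for 585 on none. Only 3 were above it on all arrays of one day and on none of the other, and all 3 stayed close to that limit. They are named because they are so few, after their values had been seen. paxillus_13121 read 5.92, 5.77 and 5.62 on the day 8 arrays and 5.25, 5.42 and 5.48 on the day 6 arrays, a called difference of 0.39 ± 0.09 (SE, limma adjusted p = 0.00983). paxillus_12966 was above the limit at day 8, with a difference of 0.16 ± 0.11 (SE, limma adjusted p = 0.277), and paxillus_12843 at day 6, with -0.37 ± 0.19 (limma adjusted p = 0.165), so neither was called.

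At least 2-fold, 36 sequences rose and 43 fell, together 79 or 0.647% of those tested. The median level of the 36 was 11.39 at day 8 and 10.26 at day 6 on the log2 scale, and that of the 43 was 10.53 at day 8 and 11.88 at day 6. When the fold itself was tested against a minimum of 1.5 (limma treat), 7 rises and 3 falls were left, 10 sequences or 0.0819%. That number was 1 without day 6 array 1, 16 without day 6 array 3, 4 without day 8 array 3 and 44 with array weights. The deepest called fall, that of paxillus_394, was not among the 10 and is named after its value had been seen. It read 9.91, 9.62 and 8.54 on the day 8 arrays and 12.46, 12.52 and 10.21 on the day 6 arrays, with day 6 array 3 near the day 8 values. Its log2 difference was -2.37 ± 0.54 (SE, limma treat adjusted p = 0.639).

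The largest rises past this test were those of paxillus_7280 and paxillus_5896. paxillus_7280 read 12.03, 11.86 and 12.35 on the day 8 arrays and 10.25, 10.51 and 10.22 on the day 6 arrays. The groups did not overlap, and the difference was 1.75 ± 0.15 (SE), 3.37-fold (limma treat adjusted p = 0.00814). paxillus_5896 read 11.94, 11.72 and 12.32 on the day 8 arrays, against 9.99, 10.54 and 10.38 on the day 6 arrays. It was 1.69 ± 0.17 higher (SE), 3.23-fold, again without overlap (limma treat adjusted p = 0.0211). The courses of these 2 sequences differed before day 6. paxillus_7280 was already 0.69 ± 0.15 (SE) higher at day 6 than at day 2 (limma adjusted p = 0.00288), whereas for paxillus_5896 that difference was -0.11 ± 0.17 (limma adjusted p = 0.632). After day 8 both rose again, by 1.48 ± 0.15 and by 2.23 ± 0.17 between day 13 and day 8 (SE). Whether their steps before day 6 differ from each other was not tested.

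The largest falls past the same test were those of paxillus_8111 and paxillus_1038. paxillus_8111 read 12.15, 11.96 and 11.25 on the day 8 arrays and 13.78, 14.02 and 13.77 on the day 6 arrays. Day 8 array 3 was the lowest, and even the highest day 8 value lay far below day 6. The log2 difference was -2.07 ± 0.19 (SE), 4.20-fold lower (limma treat adjusted p = 0.00814). paxillus_1038 read 9.47, 9.54 and 9.25 on the day 8 arrays, against 11.57, 11.33 and 11.21 on the day 6 arrays. It was 3.86-fold lower, with a log2 difference of -1.95 ± 0.13 (SE, limma treat adjusted p = 0.00158). These 2 falls were placed differently in the time course. paxillus_8111 averaged 13.80 ± 0.09, 13.86 ± 0.14, 11.79 ± 0.48 and 10.32 ± 0.25 at days 2, 6, 8 and 13 (SD, n = 3), so its level at day 6 was within the replicate spread of day 2. paxillus_1038 averaged 12.83 ± 0.07, 11.37 ± 0.18, 9.42 ± 0.15 and 9.54 ± 0.27, and the difference between day 13 and day 8 was 0.12 ± 0.13 (SE, limma adjusted p = 0.46).

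The third fall past the minimum fold, named after its values had been seen, was that of paxillus_8201, which read 8.91, 9.00 and 8.75 at day 8 and 10.21, 10.11 and 10.41 at day 6. It was 2.56-fold lower (log2 difference -1.36 ± 0.11, SE, limma treat adjusted p = 0.0139). The other 5 rises had log2 differences between 1.14 and 1.44. Each of the 10 sequences rested on 10 probe pairs, which sets them apart little, since only 11 of the 12214 sequences had fewer.

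**Figure D3:**
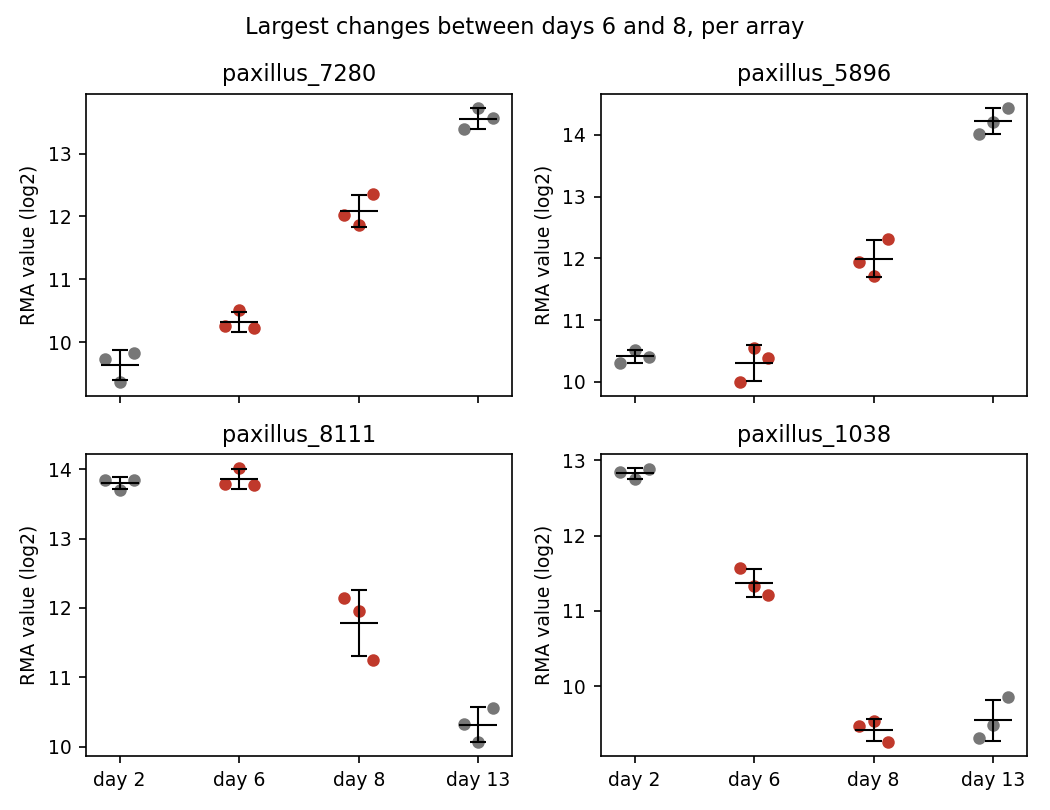
RMA values (log2, vertical axis) of the 2 largest rises (upper panels) and the 2 largest falls (lower panels) past the test with a minimum fold of 1.5, on the 3 arrays of each day (horizontal axis), with the mean and SD as black bars; days 6 and 8 are red and days 2 and 13 grey. paxillus_7280 and paxillus_5896 climb on to 13.56 and 14.22 at day 13, while paxillus_8111 falls on to 10.32 and paxillus_1038 stays near its day 8 level.

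Day 13 against day 2, the whole span of the sampled days, shares no array with day 8 against day 6, although both take their spread from the same fit. It therefore shows where the change of these 2 days lay within the overall course. With the days as titled, most sequences that moved between days 6 and 8 moved the same way over the whole span. Were days 6 and 8 exchanged, the 2245 sequences with the same direction and the 283 with opposite directions would change places. That comparison called 8040 sequences, 65.8% of all tested. Of the 1741 that rose, 1276 (73.3%) were also higher at day 13 than at day 2, where 34.4% of all sequences were higher. Of the 1417 that fell, 969 (68.4%) were also lower, against 31.4% of all sequences. A sequence of small spread is called more easily in both comparisons, and how far this raised the 2 shares was not tested. Seen from the span, 30.4% of the 4201 sequences higher at day 13 had risen between days 6 and 8, and 25.2% of the 3839 lower at day 13 had fallen. The median day 13 minus day 2 difference was 0.51 for the rises and -0.57 for the falls, against 0.03 over all sequences. Across the 12214 sequences the 2 differences correlated at r = 0.467, a description only, since sequences are not independent replicates and share their arrays and chip positions. The 2245 were 1271 without day 6 array 1, 1441 without day 6 array 2, 1134 without day 8 array 3 and 3457 with array weights.

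The changes of at least 2-fold were set beside the span in the same way. Of the 36 rises 35 were also higher at day 13 than at day 2, and 1 was lower. Of the 43 falls 28 were also lower, 11 were higher and 4 were not called. The median day 13 minus day 2 difference was 2.33 for the 36 rises and -1.11 for the 43 falls. Whether the shares of rises and falls differ was not tested. All 10 sequences past the minimum fold of 1.5 moved in the direction of the span. The differences over the span were 3.92 ± 0.15 for paxillus_7280, 3.81 ± 0.17 for paxillus_5896, -3.49 ± 0.19 for paxillus_8111 and -3.28 ± 0.13 for paxillus_1038 (SE, log2). Not all 10 kept their day 8 level. paxillus_10846, a rise named after its values had been seen, averaged 9.73, 10.39, 11.63 and 10.59 at days 2, 6, 8 and 13. Its day 13 minus day 8 difference was -1.05 ± 0.11 (SE, limma adjusted p = 7.79e-06).

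**Figure D4:**
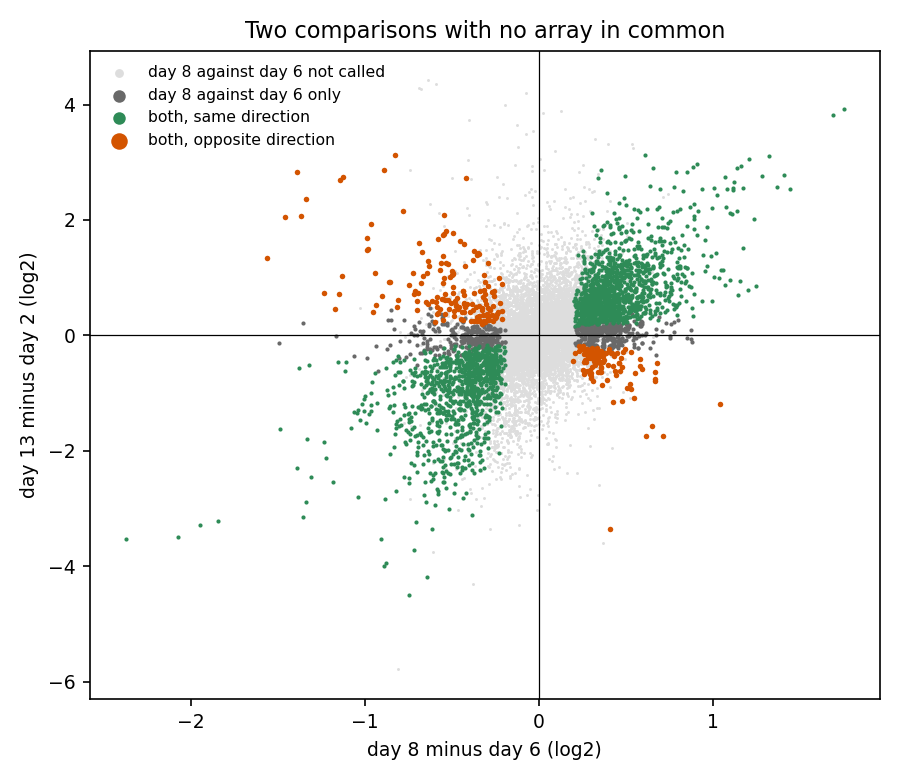
Day 13 minus day 2 (vertical axis) against day 8 minus day 6 (horizontal axis), both log2, 1 point per sequence. Green points (2245) were called in both comparisons in the same direction, orange points (283) in opposite directions, dark grey points (630) between days 6 and 8 only, and light grey points were not called between days 6 and 8.

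A further 630 sequences, 19.9% of the 3158, were called between days 6 and 8 but not between days 13 and 2. Over all sequences tested, 65.8% were called between days 13 and 2. A missing span call was thus less frequent among the 3158 than over all sequences. The 349 that rose had median levels of 11.18, 11.24, 11.64 and 11.23 at days 2, 6, 8 and 13 on the log2 scale. The 281 that fell had medians of 11.71, 11.67, 11.24 and 11.69. In both lists the median at day 8 stood apart from those of the other 3 days. All 4 days took part in choosing these lists, since days 13 and 2 had to lack a called difference, so the medians are a description only.

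In 283 sequences, 8.96% of the 3158, the change between days 6 and 8 ran opposite to the span. Of these 116 rose at day 8 and were lower at day 13 than at day 2, and 167 fell at day 8 and were higher at day 13. The 116 were 6.66% of the 1741 rises, whereas 31.4% of all sequences were lower over the span. The 167 were 11.8% of the 1417 falls, whereas 34.4% of all sequences were higher. Opposite directions were thus less frequent than these shares over all sequences. The 116 had median levels of 11.46, 11.31, 11.69 and 10.87 at days 2, 6, 8 and 13. The 167 had medians of 11.85, 12.06, 11.48 and 12.85. At least 2-fold in both comparisons, 1 was of the first kind and 8 were of the second. The 283 were 155 without day 6 array 1, 118 without day 6 array 2, 152 without day 8 array 1, 166 without day 8 array 2 and 123 without day 8 array 3. They were 748 with array weights and 483 with each comparison fitted on its own 6 arrays.

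The opposite sequences were ranked by the smaller of their 2 absolute log2 differences, among those whose arrays overlapped in neither comparison. Of those that fell at day 8 against an overall rise, paxillus_8399 and paxillus_11828 came first by this rule. paxillus_8399 read 9.71, 9.75 and 9.78 on the day 8 arrays and 11.50, 11.61 and 10.51 on the day 6 arrays. The day 8 arrays agreed closely and day 6 array 3 stood below the other day 6 arrays. The log2 difference was -1.46 ± 0.26 (SE), 2.75-fold lower (limma adjusted p = 0.00237). At day 13 this sequence averaged 12.36 ± 0.40, against 10.31 ± 0.22 at day 2 (SD, n = 3), 4.15-fold higher. paxillus_11828 read 8.40, 8.43 and 8.81 on the day 8 arrays and 9.64, 10.66 and 9.50 on the day 6 arrays. Here day 6 array 2 stood above the other day 6 arrays. It was 2.62-fold lower at day 8 (log2 difference -1.39 ± 0.31, SE, limma adjusted p = 0.00726) and 7.11-fold higher at day 13 than at day 2.

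The rises against an overall fall were smaller. paxillus_4603 read 11.15, 10.90 and 11.41 on the day 8 arrays and 10.05, 9.91 and 10.38 on the day 6 arrays, 2.05-fold higher (log2 difference 1.04 ± 0.16, SE, limma adjusted p = 0.00105). Its means were 11.09 ± 0.21, 10.12 ± 0.24, 11.15 ± 0.25 and 9.90 ± 0.16 at days 2, 6, 8 and 13 (SD, n = 3), so day 8 was back at the level of day 2 and lay between 2 lower harvests. paxillus_651 read 12.67, 12.69 and 12.89 on the day 8 arrays and 11.97, 11.83 and 12.32 on the day 6 arrays. The groups did not overlap, with a log2 difference of 0.71 ± 0.22 (SE, limma adjusted p = 0.0347). That call was lost without any one of day 6 arrays 1 and 2 and day 8 arrays 1, 2 and 3, with limma adjusted p between 0.0654 and 0.124. Its level at day 13 was 10.27 ± 0.57, against 12.02 ± 0.14 at day 2 (SD, n = 3).

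**Figure D5:**
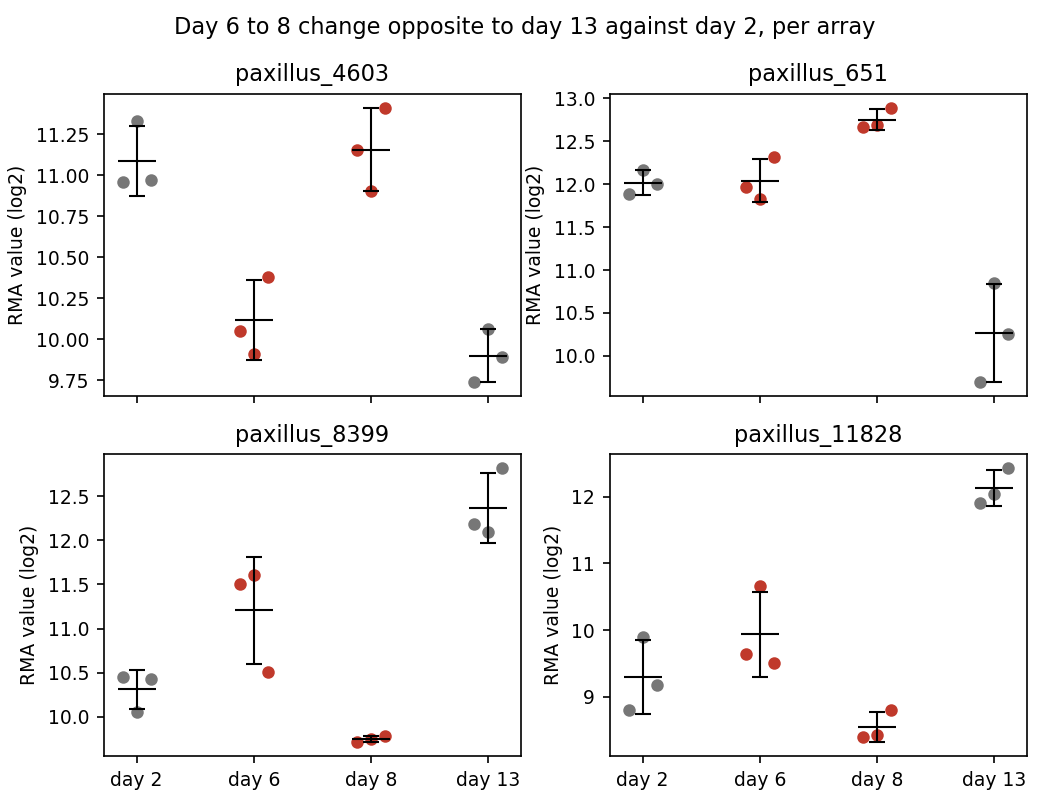
RMA values (log2, vertical axis) on the 3 arrays of each day (horizontal axis), with mean and SD as black bars, for the 4 sequences named for a change between days 6 and 8 opposite to that between days 2 and 13. The means of paxillus_4603 and paxillus_651 peak at day 8 and are lowest at day 13. Those of paxillus_8399 and paxillus_11828 are lowest at day 8 and peak at day 13.

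The 2 days between these harvests were then set against the 11 days of the span. A straight line between the means of days 2 and 13 puts 2 of 11 parts of the span difference on this step, and the step was tested against that share for each sequence. In 1800 sequences (14.7%) it differed, with 1006 (8.24%) above the line and 794 (6.50%) below (limma adjusted p under 0.05). Of the 1741 rises 888 (51.0%) lay above the line, and of the 1417 falls 645 (45.5%) lay below it. These hold all 116 rises and all 167 falls that ran opposite to the span, for which the line runs the other way. They also hold 76.2% of the 349 rises and 68.7% of the 281 falls without a called span difference. None of the 1741 rises was called below the line and none of the 1417 falls above it. Of the 79 changes of at least 2-fold, 71 went beyond the line. The rises, the falls, the 79 and the sequences named next were chosen for their day 8 minus day 6 difference. The line test uses that same difference, so these results follow in part from the choice. paxillus_1038 fell by 1.35 ± 0.14 (SE) more on the log2 scale than its line, which gave -0.60 (limma adjusted p = 0.000474). paxillus_7280 exceeded its line by 1.04 ± 0.15 and paxillus_5896 by 1.00 ± 0.17 (SE). The 1800 became 831, 613 and 1197 without day 6 array 1, 2 or 3, and 992, 926 and 570 without day 8 array 1, 2 or 3, and 4649 with array weights.

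Neighbouring numbers moved in the same direction in a majority of pairs. Among 11427 pairs of consecutive sequence numbers, both members were called in 955, and in 649 of these (68.0%) in the same direction. Over all such pairs the sign of the difference was shared by 56.4%. Of all sequences 25.9% were called, and 55.1% of the called ones were rises. Whether neighbours agreed more than unrelated pairs would was not tested. Whether several sequences stem from the same gene is not known, so the counts are of array sequences and not of genes.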

How the data were processed

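The deposited log2 expression values were made by the authors with RMA (background correction, a common distribution for all arrays, median polish over probes), per the submitters' processing notes. Its version is not given in the sources used here. That the scale is log2 follows from the range of values. RMA hides any change in total messenger RNA, and changes are relative to the rest of the array. The number of probe pairs, another deposited column, only describes a sequence. The values equal those of the series-wide table in all 146568 cells. Depth has no meaning for arrays; 3 arrays per day limit the precision, with a median standard error of 0.0999 for day 8 minus day 6.

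With limma 3.58.1 under R 4.3.3, a mean per day was fitted to all 12 arrays, with no replicate block (lmFit and eBayes, or treat for a minimum fold of 1.5). The prior degrees of freedom were 4.23, beside 8 residual ones. Benjamini-Hochberg adjustment ran over 12214 sequences; the control feature was left out and no filter on dim sequences was used. A sequence was called at an adjusted p under 0.05. The fit was tested on simulated data. Same-numbered arrays of days 8 and 6 deviated from their day means with r of 0.03, -0.06 and 0.12, so the numbers were not taken as pairs.

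Named sequences are the 2 largest rises and falls past the minimum fold with non-overlapping arrays, and the 2 of each direction that oppose the span by the largest value of the smaller of both absolute differences. The comparison, lists and rules were chosen with earlier results of these data known.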

Additional observations from a re-analysis of the deposited data

Results flagged for a closer look

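In 283 sequences the change between days 6 and 8 ran opposite to that between days 2 and 13, and in all 283 the difference between the step and its share of the span was itself past the limma threshold (adjusted p under 0.05). A step opposite in sign to the span lies beyond the straight line on its own side, so the agreement of the 2 tests follows in part from the way the lists were made. The 283 hold 6.66% of the rises and 11.8% of the falls. Over all sequences, 31.4% were lower and 34.4% higher over the span, so opposite directions were comparatively rare.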

How the results depend on the processing

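Leaving out 1 of the 12 arrays at a time gave 1520 to 3602 called sequences for day 8 against day 6, 57 to 96 changed at least 2-fold, 1 to 16 past the minimum fold, 1134 to 2432 with the direction of the span, 118 to 394 against it and 570 to 2386 off the straight line. Without day 8 array 3, 1513 of the 1520 calls were among the original 3158. Array weights gave 5787 called, 44 past the minimum fold, 3457 with the span, 748 against it and 4649 off the line. With only the 6 arrays of each comparison in the fit, 5385 were called, which hold 3156 of the original calls, and 483 went against the span. Days 8 and 6 vary less than days 2 and 13; beyond that the cause was not tested. At an adjusted p under 0.01, stricter by construction, 1360 were called, 4 past the minimum fold, 1009 with the span, 75 against it and 446 off the line. At a 4-fold distance from the control 7 sequences crossed it. Median centring, quantile normalization, removal of dim sequences, the trend and robust settings and the series-wide table gave between 3158 and 3327 called sequences. The series-wide table holds the same values, so its 3158 was fixed in advance. Median centring and quantile normalization acted on values that RMA had already given a common distribution. The replicate block gave 3099 called sequences, 2197 with the span and 274 against it, and 2922 of the original calls were kept. Of 252 values for the 8 sequences named by rule, 246 kept direction and call, 6 lost the call, all of paxillus_651 between days 8 and 6, and 0 reversed. Many settings changed only the test, its spread, its threshold or the other sequences tested, or left out an array of another day. There the log2 difference could not move, so its direction was fixed in advance. The 8 sequences were also chosen for large changes in the same arrays.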
